A study of Homo sapiens with 6 samples.

Results

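LY6D and 9 further genes of the LY6/uPAR family were examined in CAL-27 cells, a line established from a squamous cell carcinoma of the tongue. The 10 genes were LY6D, LY6K, LY6H, LYPD1, LYPD2, LYPD3, LYPD5, PSCA, SLURP1 and CD59. A probe belonged to the set when it was not a control probe and its RefSeq accession on the array mapped to one of these symbols, which gave 13 of the 34127 probes. Of these, 11 probes for 9 genes passed the filter on dim probes, among 27624 probes that passed in all. The set was chosen by way of the log2 fold change of LY6D in the same comparison, which was already known, with the other 9 genes taken by family, so the values of the 10 genes are a description and carry no p-value.

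Total RNA was measured on 6 single-colour Agilent whole-genome arrays. CAL-27 cells stably transduced with an shRNA against XBP-1s, the spliced form of the unfolded protein response factor XBP1, gave 3 samples (shXBP-1s). CAL-27 cells carrying a negative control shRNA (shCtrl) gave the other 3. All 6 samples shared the cell line and the carriage of an shRNA, and the labels name no further treatment or time point. The sources used here say neither whether the samples of a group came from separate cultures nor how many clones or hairpins were used, so p-values measure only the spread between these samples, which may be technical. The number of arrays, 3 in each group, limits the precision of every value.

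Proteins of the LY6/uPAR family share a compact fold held by disulfide bonds, often called the 3-finger fold. Most are carried on the outer face of the plasma membrane by a glycosylphosphatidylinositol (GPI) anchor that is attached in the endoplasmic reticulum, and a few are secreted. In stratified squamous epithelium several members mark keratinocyte layers or act on nicotinic acetylcholine receptors, whereas CD59 protects cells from the membrane attack complex of complement. Many of the genes lie side by side on chromosome 8, as did 6 of the 10 here.

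XBP1 itself read 2536, 2743 and 2766 signal units in shCtrl and 695, 617 and 551 in shXBP-1s, which is a log2 difference of -2.39 (SE 0.041; adjusted p = 2.81e-07 by limma), and the level left was 19.1% of control. Signals here are the scanner software's background-corrected brightness of a probe, and log2 levels are relative to the 75th percentile of each array, which lay at 687 to 761 units in shCtrl and 792 to 983 in shXBP-1s. All 10 squamous epithelium markers tested for the label, such as KRT5, KRT14 and TP63, were well above background on all 6 arrays, with a summed relative signal of 125 to 135 in shCtrl and 168 to 200 in shXBP-1s. The sums were 0.964 to 1.06 against 0.664 to 0.684 for 5 fibroblast markers, 0.243 to 0.299 against 0.278 to 0.297 for 4 endothelial markers and 0.848 to 0.881 against 0.968 to 1.05 for the 4 leukocyte markers with a probe. All of these marker genes read above background, and their part in the results below was not tested. The arrays were scanned in 2 sessions, the first holding shCtrl replicates 2 and 3 and the second shCtrl replicate 1 with all 3 shXBP-1s arrays, so a value within the second session sets the 3 shXBP-1s arrays against shCtrl replicate 1 alone.

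Among the members, LY6D, a GPI-anchored antigen of keratinocytes in stratified epithelium, had the largest difference. Its signal was 1040, 1342 and 1222 units in the 3 shCtrl samples and 261, 213 and 182 units in the 3 shXBP-1s samples. Every shXBP-1s value lay far below every shCtrl value, and the closest pair of arrays was 2.51 apart on the log2 scale. The mean log2 level of 0.70 ± 0.11 in the controls stood against -2.03 ± 0.11 after knockdown (SD, n = 3 each). The difference of -2.74 (SE 0.077) left 15.0% of the control level. Fewer cells expressing a gene and less RNA per cell cannot be told apart in such bulk samples. Within the second scan session the value was -2.63.

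**Figure D1:**
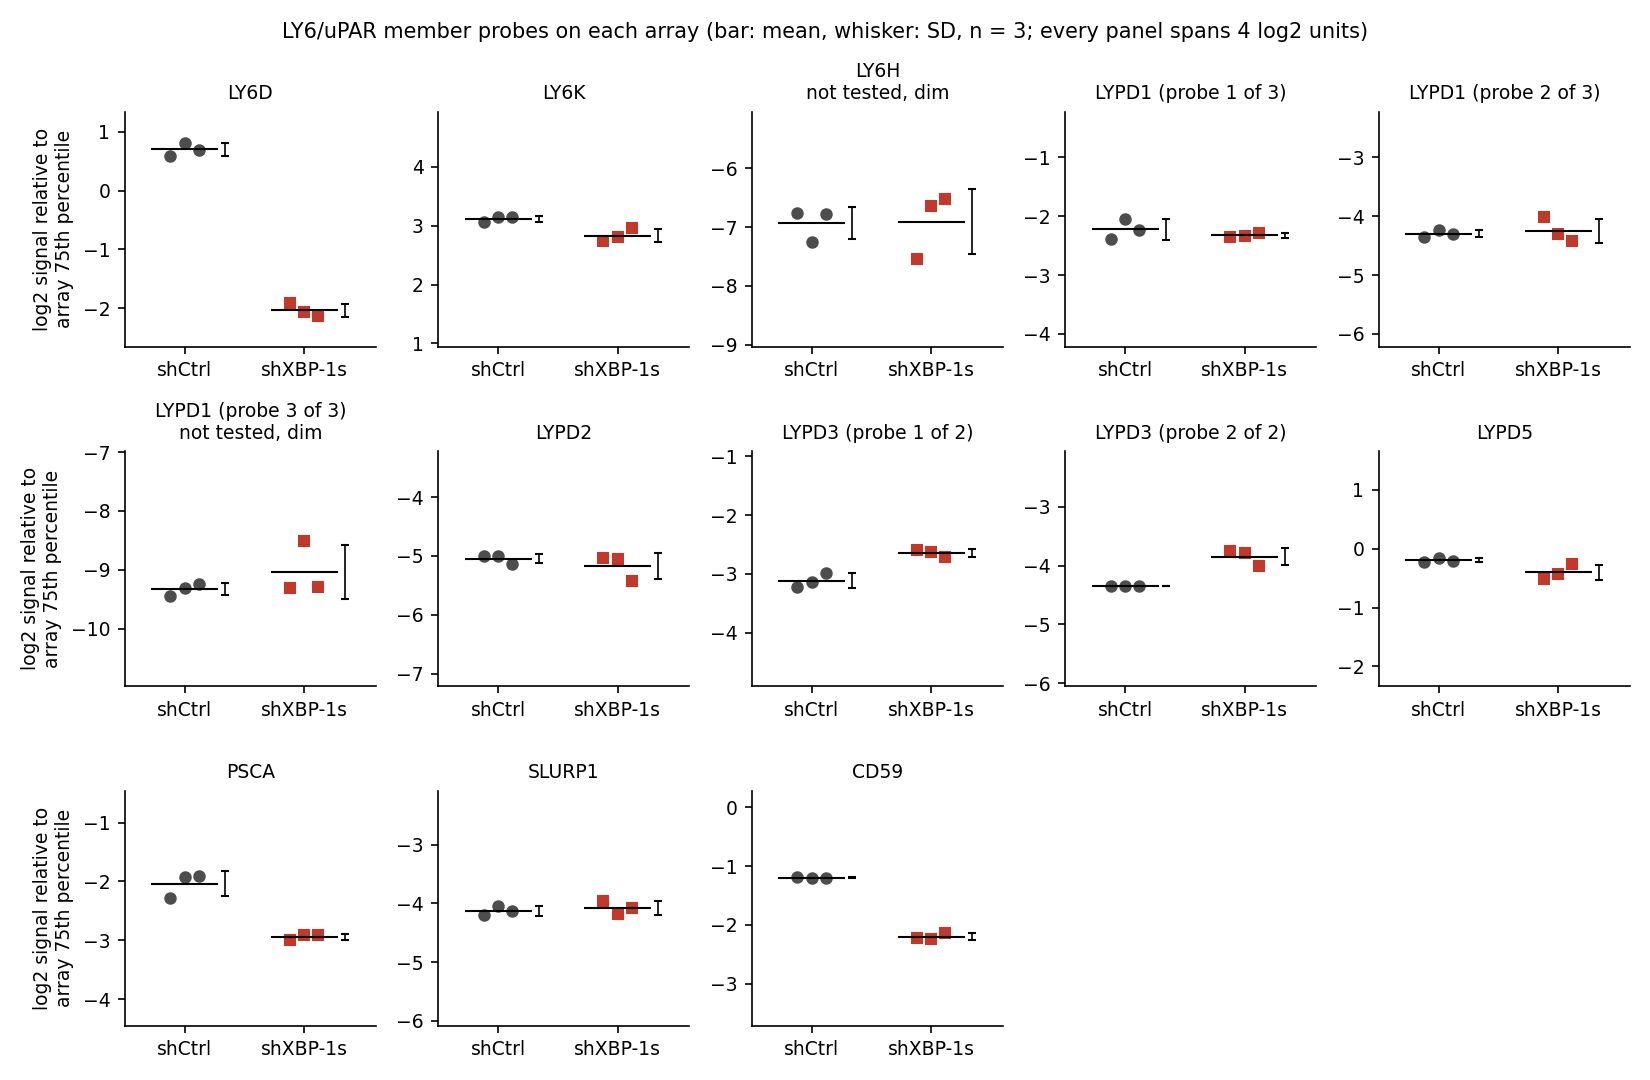
The log2 signal of each member probe relative to the array's 75th percentile (vertical axis) in the 3 shCtrl and 3 shXBP-1s samples, 1 point per array with the mean as a bar and the SD as a whisker (n = 3), every panel spanning 4 log2 units. LY6D shows the widest gap between groups, from 0.70 to -2.03 in the means, CD59 and PSCA show smaller gaps downwards, and LYPD3 shows a small gap upwards.

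Of the 11 member probes tested, 2 were called, meaning an adjusted p below 0.05 and a change of at least 2-fold, and both were lower in shXBP-1s. These were LY6D and CD59. Over the whole array 4.90% of tested probes were called, 2.61% lower and 2.29% higher, and by gene 5.18% of 16821 tested genes were called, 2.88% lower and 2.30% higher. With so few members, and with the same contrast behind their choice, nothing is read from the difference between these shares. The median log2 fold change of the 9 member genes, each by its brightest tested probe, was -0.20, beside -0.04 over all tested genes, and 7 of the 9 lay below 0.

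CD59, the GPI-anchored inhibitor of the terminal complement complex, read 302, 330 and 329 units in shCtrl and 210, 190 and 180 in shXBP-1s. The groups did not overlap, and the control arrays lay within a narrow band. Its log2 level went from -1.20 ± 0.01 to -2.20 ± 0.06 (SD, n = 3 each), a difference of -1.003 (SE 0.054) that left 49.9% of control. CD59 therefore sat at the 2-fold limit, and PSCA was the nearest member outside it. Its call was lost with another background correction, normexp (-0.96), with quantile normalization after it (-0.74) or alone (-0.99), with the log2 values deposited by the authors (-0.98), without shXBP-1s replicate 1 (-0.99) or 2 (-0.98), and without shCtrl replicate 1 (-0.999).

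PSCA, a GPI-anchored antigen first described in prostate and present in several epithelia, read 141, 201 and 201 units in shCtrl and 123, 119 and 105 in shXBP-1s. All 3 shXBP-1s arrays were below all 3 control arrays, with shCtrl replicate 1 the lowest of the controls. The log2 level was -2.04 ± 0.21 in shCtrl and -2.94 ± 0.05 in shXBP-1s (SD, n = 3 each), a difference of -0.90 (SE 0.11) that left 53.6% of control. The control replicate that shares a scan session with the shXBP-1s arrays was also the lowest control, and against it alone the difference was -0.66. Without that replicate it was -1.02, which is past 2-fold.

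LY6K, a cancer-testis antigen expressed in squamous carcinomas, read 5725, 6758 and 6664 units in shCtrl and 6551, 6260 and 6143 in shXBP-1s. These signals overlapped between groups, and they separated only after each array was set to its own 75th percentile, at 3.12 ± 0.05 and 2.83 ± 0.11 (SD, n = 3 each), a log2 fold change of -0.28 (SE 0.064). LYPD5, a less studied member of the same family, behaved in the same manner, with 586, 680 and 657 units against 690, 667 and 662 and a log2 fold change of -0.20 (SE 0.069). Within the second scan session the values were -0.23 for LY6K and -0.17 for LYPD5. For both genes the separation thus depended on the scaling of the arrays. With normexp, which moved the median of all tested probes to -0.42, the values relative to that median were 0.29 for LY6K and 0.15 for LYPD5.

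LYPD3, also called C4.4A, is a GPI-anchored protein of the upper epidermal layers and the only member that was higher by non-overlapping values, on each of its 2 probes, although this direction turned with normexp alone (-0.16 and -0.45, or 0.26 and -0.03 relative to the median of all probes). The first probe read 73.2, 86.8 and 95.3 units in shCtrl and 163, 145 and 120 in shXBP-1s. All shXBP-1s arrays were above all control arrays before normalization too. The log2 level rose from -3.12 ± 0.12 to -2.64 ± 0.07 (SD, n = 3 each), a difference of 0.47 (SE 0.082) or 1.39-fold. The second, dimmer probe gave 33.9, 37.4 and 37.2 against 72.8, 65.0 and 49.0 units and a difference of 0.49 (SE 0.097), so the probes of this gene pointed the same way. When quantile normalization followed normexp, the differences were 0.27 and 0.20, and within the second scan session they were 0.59 and 0.49.

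**Figure D2:**
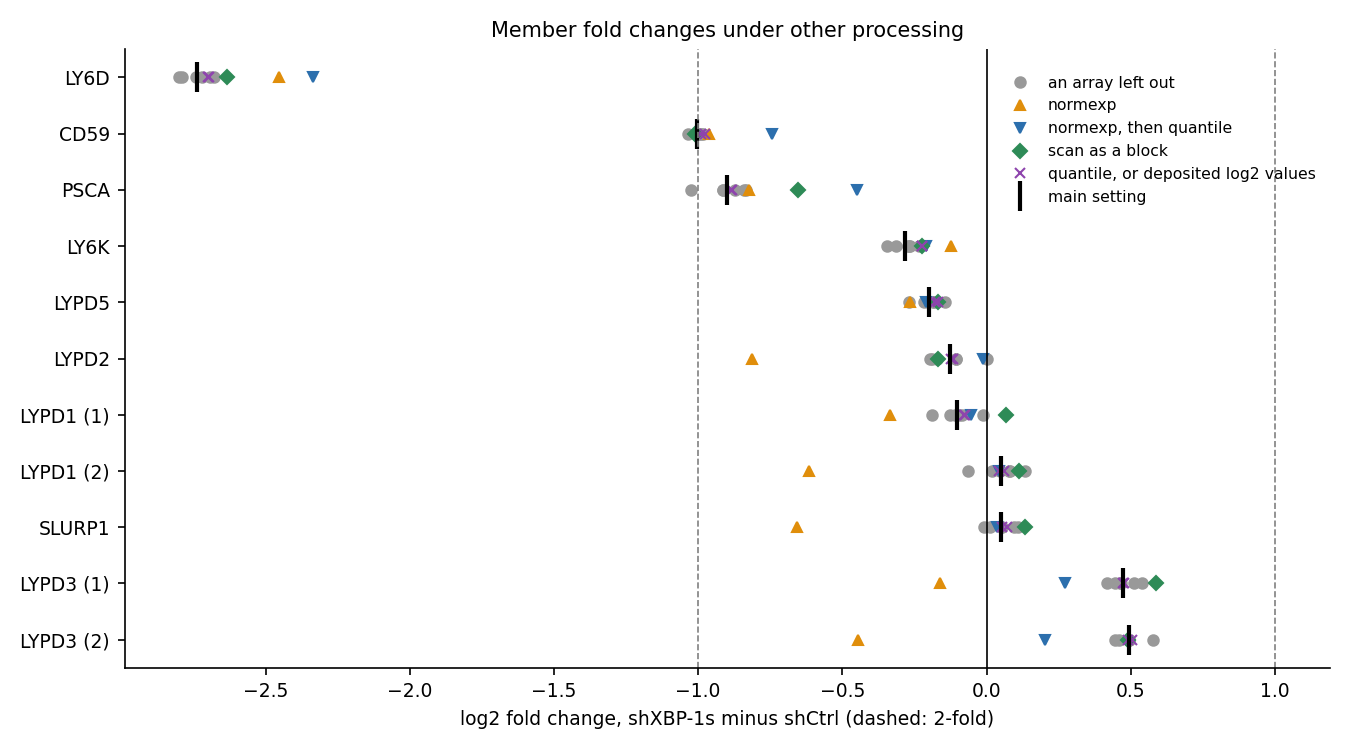
The log2 fold change of each tested member probe, shXBP-1s minus shCtrl (horizontal axis), with the reported setting as a black bar, other background corrections and normalizations as symbols, and leaving out 1 array as grey points; dashed lines mark 2-fold. LY6D stays between -2.80 and -2.34 and PSCA between -1.02 and -0.45. Normexp alone, which moved the median of all tested probes to -0.42, carries LYPD3, SLURP1 and the second LYPD1 probe below 0.

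SLURP1 and LYPD1, members that act on nicotinic receptors, differed little between the groups. SLURP1, a secreted keratinocyte protein that modulates such receptors, read 37.3, 46.3 and 43.1 units in shCtrl and 63.4, 49.2 and 46.9 in shXBP-1s. The raw signals did not overlap, but the log2 levels did, at -4.12 ± 0.08 and -4.07 ± 0.12 (SD, n = 3 each), a difference of 0.05 (SE 0.097), or 0.13 within the second scan session. LYPD1, a GPI-anchored modulator of these receptors in neurons, gave differences of -0.10 (SE 0.091) and 0.05 (SE 0.12) on its 2 tested probes, and the groups overlapped on both. Within the second scan session these were 0.07 and 0.11, so the sign of the first turned. The brighter of these read 131, 185 and 161 units against 191, 176 and 163. The third LYPD1 probe was not well above background on any of the 6 arrays.

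LYPD2, a further epithelial member, read 21.4, 23.8 and 21.5 units in shCtrl and 29.96, 26.9 and 18.4 in shXBP-1s, with a log2 difference of -0.13 (SE 0.14). The groups overlapped. LY6H, known mainly from brain, was well above background on only 2 of the 3 arrays in each group and was not tested. It read 6.34, 5.01 and 6.88 units in shCtrl and 5.28, 8.91 and 8.58 in shXBP-1s, so its log2 levels of -6.93 ± 0.28 and -6.91 ± 0.55 (SD, n = 3 each) overlapped and lay close to the detection limit.

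In all, the groups did not overlap on the log2 scale in 7 of the 11 member probes, beside 52.4% of all tested probes. By gene, every tested probe was separate in 6 of 9 genes, namely LY6D, CD59, PSCA, LY6K and LYPD5 on the lower side and LYPD3 on the higher side. A complete separation of 3 arrays against 3 was thus common across the array, and what set the members apart from one another was its size, from 6.67-fold for LY6D to 1.22-fold for LY6K and 1.15-fold for LYPD5.

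**Figure D3:**
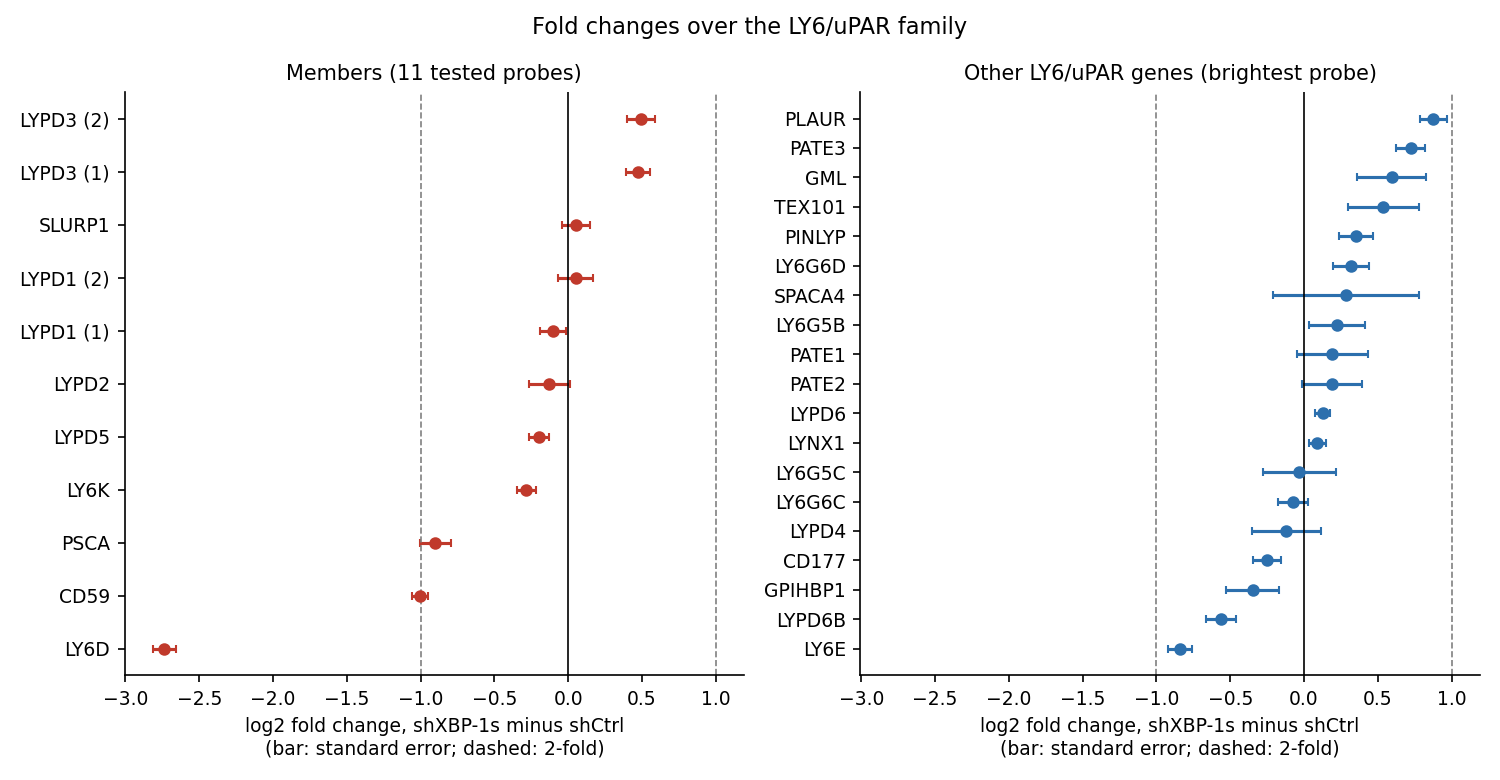
The log2 fold change, shXBP-1s minus shCtrl, of each tested member probe and of the other LY6/uPAR genes by their brightest probe, with bars of standard error. LY6D at -2.74 stands well beyond the other family genes, which by brightest probe range from -0.84 to 0.87 outside the 10 members. The dimmer LYPD6 probe, at 1.11, is not shown.

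The remainder of the family was read from a list of 26 further LY6/uPAR genes, of which 23 had a probe and 19 were tested. None was called at 2-fold with limma, beside 5.18% of all tested genes. In the methods' t-test 7 had an unadjusted p below 0.05, beside 12133 of the 27624 tested probes. At an adjusted p below 0.05 with no minimum fold, 2 were lower, 3 were higher and 14 did not pass, so 26.3% passed, beside 46.4% of all tested genes, 27.5% lower and 18.9% higher. Their median log2 fold change was 0.19. LY6E, a GPI-anchored protein widely expressed in epithelia, fell by 0.84 (SE 0.082; adjusted p = 1.12e-04, limma), from 242, 273 and 269 units to 217, 179 and 140. LYPD6B was also lower, at -0.56 (SE 0.10; adjusted p = 0.00253, limma).

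PLAUR, the urokinase receptor that gives the family the latter part of its name, was higher in shXBP-1s. It read 357, 311 and 375 units in shCtrl and 889, 772 and 659 in shXBP-1s, with no overlap between groups. The log2 fold change was 0.87 (SE 0.091; adjusted p = 1.54e-04, limma), and it was 0.74 within the second scan session. PATE3 at 0.72 (SE 0.098; adjusted p = 6.34e-04, limma) and PINLYP at 0.35 (SE 0.11; adjusted p = 0.0375, limma) were higher too, although with normexp LYPD6B (-0.77), PATE3 (0.26) and PINLYP (-0.66) did not pass, and PINLYP did not pass with the scan session as a block (0.35; adjusted p = 0.138, limma) or with any 1 array left out except shXBP-1s replicate 3. The probes of LYPD6 did not give 1 answer, since the dimmer probe was higher by 1.11 (SE 0.090; adjusted p = 4.22e-05, limma) and the brightest, which stands for the gene in the counts, gave 0.13 (adjusted p = 0.0812). With normexp, which moved the median of all tested probes to -0.42, the dimmer probe gave 0.21 and the brightest -0.12, and neither passed. The brightest passed with quantile normalization (0.15; adjusted p = 0.0362, limma) and with the deposited values (0.15; adjusted p = 0.0313, limma).

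The genes lying between and beside the members on chromosome 8 were read in RefSeq order from PSCA to LY6H, a span of 16 protein-coding genes with 6 members and 6 other genes that were tested. THEM6, which lies between LY6K and SLURP1 and encodes a thioesterase superfamily protein, was the only non-member called, at -1.24 (SE 0.081; adjusted p = 1.45e-05, limma), and it was -1.04 within the second scan session. LY6E was the other non-member with an adjusted p below 0.05. LYNX1, LY6D's tested neighbour on one side, gave 0.09 (adjusted p = 0.259; a LYNX1-SLURP2 readthrough gene overlaps it), and GML, its neighbour on the other, gave 0.59 (SE 0.24; adjusted p = 0.0784), so neither passed the test. The GML value varied with shCtrl replicate 1, the only control in the second scan session, so array and session cannot be told apart. It was -0.01 within the second session and 0.90 (adjusted p = 4.51e-04, limma) without that replicate. With normexp, which moved the median of all tested probes to -0.42, it was -0.55. With the replicate number as a block its adjusted p was 0.0406 by limma. In cluster order, PSCA at -0.90, LY6K at -0.28 and THEM6 at -1.24 were adjacent and all lower, beside 52.8% of all tested probes. The separation of LY6K depended on the scaling of the arrays. SLURP1, LYPD2, LYNX1-SLURP2 and LYNX1 followed with values from -0.13 to 0.18, and LYNX1-SLURP2 gave 0.41 with the scan session as a block. Then came LY6D at -2.74, GML, CYP11B1 at 0.05 and LY6E at -0.84.

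**Figure D4:**
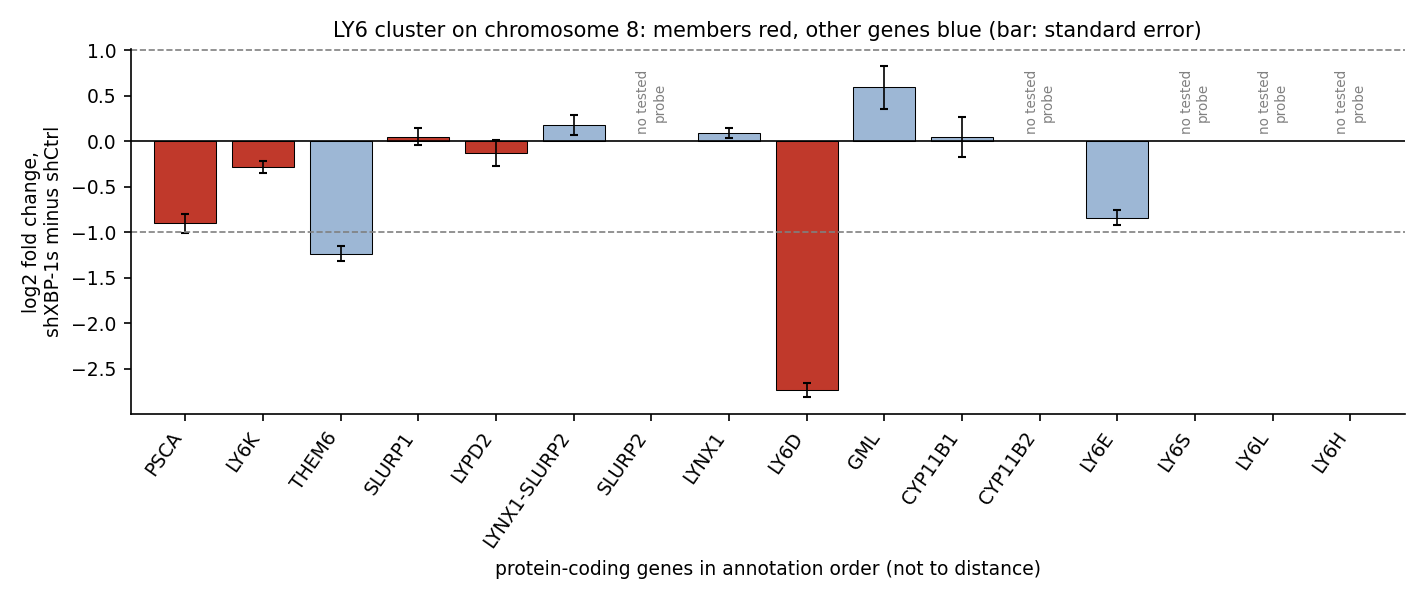
The log2 fold change, shXBP-1s minus shCtrl (vertical axis, bars of standard error), of the tested genes of the chromosome 8 cluster in their RefSeq order along the horizontal axis, members in red and other genes in blue. LY6D at -2.74 is the lowest, and PSCA, LY6K and THEM6 are adjacent and lower, although LY6K separates only after the scaling of the arrays. GML at 0.59 is -0.01 within the second scan session and -0.55 with normexp, where the median of all tested probes is -0.42.

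The profile most like that of LY6D was sought among 20824 probes of other named genes, all well above background on every array, by the root mean square difference of the log2 levels over the 6 arrays, each profile centred on its own mean. The closest were SLC2A4, the insulin-responsive glucose transporter, at 0.139, IL17C, an epithelial cytokine, at 0.157, TMT1A, a methyltransferase, at 0.164, RIPOR3 at 0.186 and XBP1 itself at 0.198. Their log2 fold changes of -2.74, -2.65, -2.41, -2.38 and -2.39 were near to that of LY6D, which is what this measure selects for. No other tested LY6/uPAR gene had a fold change near that of LY6D, so the absence of the family from these 5 follows from the measure.

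The GPI anchor that most members carry is built and attached by a long series of enzymes, and 34 of these genes were listed and all were tested. PIGX, a subunit of the first mannosyltransferase, was the only one called, or 2.94% beside 5.18% of all tested genes. It read 480, 553 and 549 units in shCtrl and 325, 298 and 271 in shXBP-1s, or a log2 difference of -1.10 (SE 0.048; adjusted p = 2.93e-06, limma). With normexp and quantile normalization it was -0.90, and the call was lost. At an adjusted p below 0.05 with no minimum fold, 16 were lower, 2 were higher and 16 did not pass. The 52.9% that passed stood beside 46.4% of all tested genes, of which 27.5% were lower and 18.9% higher, and nothing is read from the list's split. The list had a median of -0.19 beside -0.04 over all tested genes. PIGF, which takes part in adding the ethanolamine phosphate that bridges to the protein, gave -0.72 (SE 0.056; adjusted p = 3.6e-05, limma), while PIGL at 0.38 and PIGW at 0.34 were the 2 that were higher. With normexp, which moved the median of all tested probes to -0.42, neither passed (0.23 and -0.10). PIGW also did not pass with the scan session as a block (0.13) or without shCtrl replicate 2 or 3 or shXBP-1s replicate 1 or 2.

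CD59 acts at the end of the complement cascade. A list of 29 complement genes held regulators and components of the earlier and terminal steps, and 23 of these genes were tested. Of these 2 were called lower and 1 higher, beside 5.18% of all tested genes called in either direction. CD55, the GPI-anchored protein that speeds the decay of the C3 convertases, was the gene that rose. It read 432, 438 and 443 units in shCtrl and 1800, 1599 and 1358 in shXBP-1s, or a log2 difference of 1.58 (SE 0.053; adjusted p = 1.52e-06, limma), so that the GPI-anchored complement regulators CD55 and CD59 had opposite signs. CD46, the membrane cofactor for C3b cleavage, gave 0.08 (adjusted p = 0.18). The called falls were CFI, the protease that cleaves C3b, at -1.20 (SE 0.064; adjusted p = 6.26e-06, limma) and CFB, a component of the alternative pathway convertase, at -1.12 (SE 0.093; adjusted p = 4.67e-05, limma). CFB was not called with normexp (-0.97), which left 2 calls. The list's median was -0.07, with 9 genes lower, 2 higher and 12 not passing at an adjusted p below 0.05, or 47.8% passing beside 46.4% of all genes. CD46 passed with quantile normalization (0.12; adjusted p = 0.0379, limma), with normexp and quantile (0.13; adjusted p = 0.0442, limma) and with the deposited values (0.13; adjusted p = 0.0266, limma).

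A list of 16 nicotinic receptor subunits was read without regard to which of them SLURP1 and LYPD1 act on. None of the 12 tested was called, beside 5.18% of all tested genes. In the methods' t-test 4 had an unadjusted p below 0.05, beside 12133 of the 27624 tested probes. CHRNA5 was lower at -0.47 (adjusted p = 0.00186, limma). CHRNA6 at 0.50 (adjusted p = 0.00328, limma), CHRNB1 at 0.26 and CHRNB3 at 0.22 were higher at an adjusted p below 0.05. With normexp, which moved the median of all tested probes to -0.42, none of the 4 passed. CHRNA6 then gave -0.57, below that median, and CHRNB3 gave -0.31, above it. CHRNA6 was 0.16 when quantile normalization followed. CHRNB1 (0.19) and CHRNB3 (0.24) did not pass with the scan session as a block, nor CHRNB1 without shCtrl replicate 2 or 3 or shXBP-1s replicate 2, nor CHRNB3 without shCtrl replicate 2 or shXBP-1s replicate 2 or 3. The 4 genes were 33.3% of those tested, beside 46.4% of all genes, and the list's median was 0.07.

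**Figure D5:**
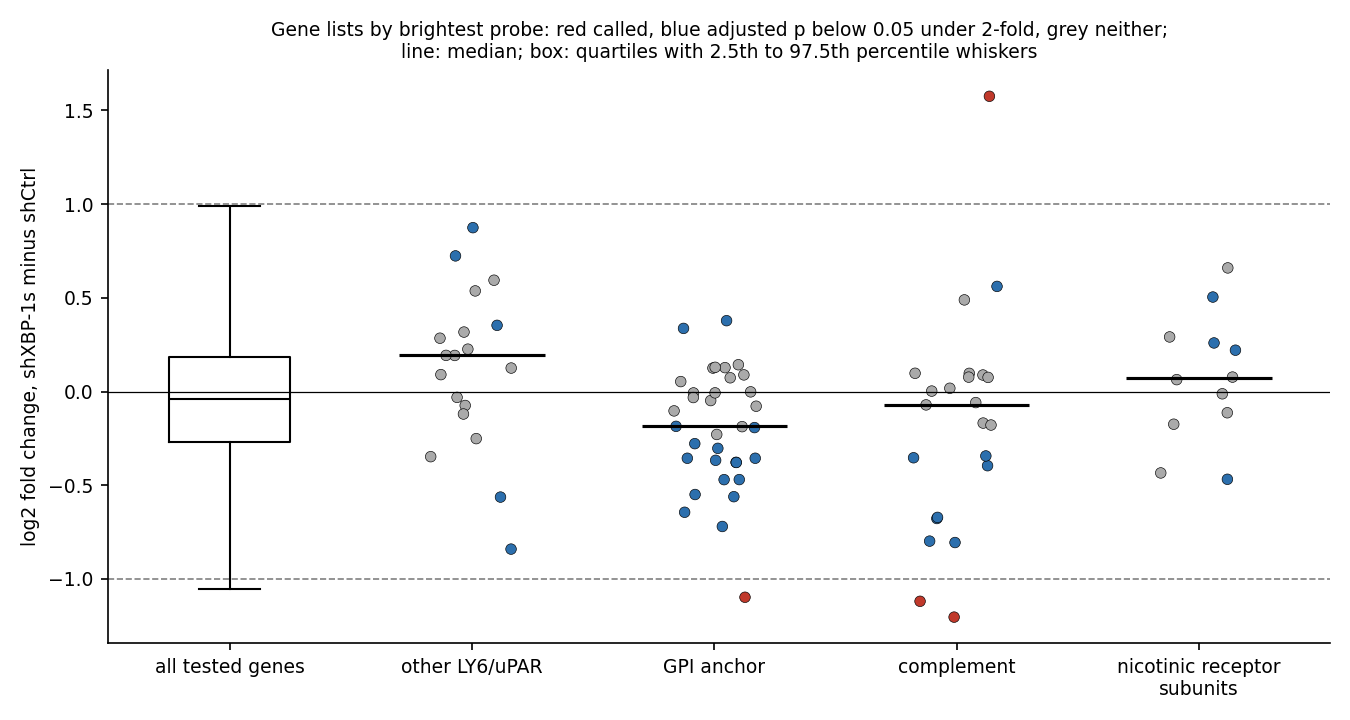
The log2 fold change of each tested gene of the 4 gene lists by its brightest probe (vertical axis), beside a box for all tested genes. Called genes are red, genes with an adjusted p below 0.05 under 2-fold blue and others grey. CD55 at 1.58 and CFI at -1.20 lie at the ends of the complement list, and PIGX at -1.10 is the lowest of the GPI anchor genes.

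The sequences around the transcription starts are shown because XBP-1s is a transcription factor whose recognition elements hold an ACGTG core. RefSeq windows (GRCh38.p14) were at hand for 4 members, namely LYPD1 with 2 starts, CD59 with 4, LYPD3 with 1 and LYPD5 with 1. The search ran on both strands from 250 bases before each start to 50 bases after it. It covered ACGTG, as well as CACGTG and TGACGTGG, which both contain it. The ER stress response element, which is CCAAT and CCACG with 9 bases between them, was also sought. Printed windows show only the 250 bases before the start. CD59 window 1 and the LYPD3 window are shown as the starts of a member that was lower and one that was higher and hold none of these. In the others the matched letters are in capitals.
CD59 window 1, chr11:33736480-33736729, minus strand: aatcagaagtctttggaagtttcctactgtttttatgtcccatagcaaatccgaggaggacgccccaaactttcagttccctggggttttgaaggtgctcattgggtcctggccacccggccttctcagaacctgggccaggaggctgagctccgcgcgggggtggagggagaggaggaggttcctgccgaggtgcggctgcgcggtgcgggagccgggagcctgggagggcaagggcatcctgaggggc
CD59 window 3, 30 bases at the match, chr11:33723007-33723036, minus strand: catctaggcattCACGTaatggaaacttac
LYPD1 window 1, 30 bases at the match, chr2:132671712-132671741, minus strand: aatcatgactcaCACGTGctcttacaatgg
LYPD1 window 2, 30 bases at CACGTG, chr2:132670260-132670289, minus strand: ctcggcagccgtCACGTGatgcctggagtg
LYPD1 window 2, 30 bases at the separate ACGTG, chr2:132670363-132670392, minus strand: cctttcccaggaACGTGcggaggcgggaga
LYPD3 window, chr19:43465609-43465858, minus strand: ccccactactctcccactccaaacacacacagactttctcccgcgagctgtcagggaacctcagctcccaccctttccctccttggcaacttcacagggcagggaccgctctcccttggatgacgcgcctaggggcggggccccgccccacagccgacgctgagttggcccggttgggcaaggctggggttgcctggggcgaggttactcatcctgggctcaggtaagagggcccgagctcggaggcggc

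Both LYPD1 windows held CACGTG, and window 2 also held a separate ACGTG, printed in the second of its lines, and LYPD1 was one of the members whose groups overlapped. CD59 window 3 held the core on the opposite strand, printed as CACGT, whereas CD59 windows 1, 2 and 4 and the LYPD3 and LYPD5 windows held none of the motifs. None of the 8 windows held TGACGTGG or the longer element. Among all 35116 RefSeq windows searched in the same way, 21.4% held ACGTG, 7.26% CACGTG, 0.729% TGACGTGG and 0.0769% the longer element. A match or its lack describes these letters in this window and nothing about binding.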

How the data were processed

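CAL-27 RNA was hybridised to 6 Agilent arrays (3 shCtrl, 3 shXBP-1s). The authors deposited scanner intensity per spot from Agilent Feature Extraction 11.0.1.1, already background-subtracted, and a table of log2 values with a median of 6.27 on every array, for which the submitters' processing notes name RMA. The labels describe a NimbleGen labelling kit although the files are Agilent's. From the intensities, log2 of the processed signal minus each array's 75th percentile was taken, flagged spots were dropped, spots of a probe averaged, and probes kept when well above background on all 3 arrays of a group. No probe of the members was saturated. limma 3.58.1 (R 4.3.3) was fitted to 27624 probes with lmFit and trended eBayes, 2-sided, with Benjamini-Hochberg adjustment, and a gene was read from its brightest tested probe. Probe accessions were named through RefSeq (GRCh38.p14), which matched 25771 of 34127 probes, and no probe coordinates are given since the array annotation is on another build. On simulated data for this comparison, with 27624 probes, 193 of 200 probes changed by 2 on the log2 scale were recovered, with 3 false calls. The simulation had independent noise, no scan session effect and no changes near 2-fold, so it does not speak to calls at that limit. The members and the gene lists were chosen with earlier results of these data known, and the genes along chromosome 8 were added last. Genes named were all members, XBP1, in each list the up to 4 called genes with the smallest p (the 2 with the smallest p where fewer than 2 were called) and the 5 probes most like LY6D; the neighbours on chromosome 8, LYPD6, LYPD6B, PATE3, PINLYP, PIGL, PIGW, CD46, CHRNB1, CHRNB3, CHRNG and CHRNB4 were named after their values were seen. The alternatives were other background corrections and normalizations, the deposited log2 values, other filters and thresholds, the methods' t-test, scan and replicate number as blocks, and each array left out.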

Additional observations from a re-analysis of the deposited data

How the results depend on the processing

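LY6D was called lower under all 19 alternatives run on its call. These reuse the same 6 arrays, and the set was chosen by this change in LY6D, so the count only describes the processing. Its log2 fold change was -2.45 with normexp background correction and -2.34 when quantile normalization followed, and -2.80 to -2.68 with 1 array left out. LY6D, LY6K, LYPD5, PSCA and CD59 were below 0 under every one of 14 alternatives for the fold change. With normexp, however, the median of all tested probes was itself -0.42. Relative to that median LY6K was 0.29 and LYPD5 0.15, while LY6D was -2.03, PSCA -0.41 and CD59 -0.54. Called probes numbered 1354 (722 lower, 632 higher), against 475 (317 lower, 158 higher) with normexp, 364 with normexp and quantile, 12133 with the methods' t-test at unadjusted p, 11516 with no minimum fold and 1253 to 1695 with 1 array left out, the last without shCtrl replicate 1. The causes were not tested. Called members numbered 1 with normexp, normexp and quantile, quantile alone or the deposited log2 values, 5 with the unadjusted t-test, 6 with no minimum fold and 1 to 2 with 1 array left out. The 5 and 6 stand beside 12133 and 11516 calls among all 27624 tested probes, and nothing is read from them. With the unadjusted t-test and with no minimum fold, respectively, calls were 7 and 5 for the other LY6/uPAR genes, 22 and 18 for GPI anchor genes, 12 and 11 for complement genes and 4 and 4 for nicotinic subunits. With no minimum fold, 46.4% of all tested genes passed. The GPI anchor list had 0 calls with normexp and quantile, and the nicotinic list 1 (CHRNG) with no filter on dim probes. With 1 array left out these lists gave 0 to 0, 1 to 1, 3 to 3 and 0 to 1 calls, the last being CHRNB4 without shCtrl replicate 3. With the replicate number as a block, 1381 probes were called, 1353 of them shared, LY6D was -2.74 (SE 0.083) and 2 members were called. Same-numbered samples deviated with correlations of -0.02, 0.12 and -0.12. With 3 arrays per group, and shCtrl replicate 1 scanned apart from the other controls, these values cannot decide whether the numbers pair the samples. With the scan session as a block, 1359 probes were called, 1078 of them shared. Signals of LY6H and the third LYPD1 probe were too near background for a comparison.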
